A study of Mus musculus with 10 samples.

Results

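The transcripts described here are those of 10 genes that mark endothelial cells, the cells that line blood vessels: Pecam1, Cdh5, Emcn, Flt1, Kdr, Tek, Tie1, Eng, Plvap and Vwf. They were chosen by symbol, and all 10 were found among the 24202 gene symbols measured. MB-49, a mouse bladder cancer cell line, was grown under the skin of the right flank (100000 cells) in mice carrying a knocked-in human LRRC32 gene, and all tumors were taken on day 10, dispersed to single cells and sequenced as bulk RNA. Mice of 5 tumors received PIIO-1, an antibody against GARP (the protein that LRRC32 encodes, which holds latent TGF-beta at the cell surface), in intraperitoneal doses of 200 ug on days 6 and 9. Mice of the other 5 tumors received PBS. The knock-in and the tumor line are shared by both groups, and the labels give neither age nor sex nor whether each tumor came from a separate animal, so the tests measure the spread between these samples. The shallowest library (PBS tumor 4) had 18843192 reads in genes and the deepest (PBS tumor 3) 37581521.

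Endothelial cells are held together by VE-cadherin (Cdh5) and PECAM-1 (Pecam1), grow toward VEGF through its receptors VEGFR1 (Flt1) and VEGFR2 (Kdr), and are kept quiescent or loosened by angiopoietins acting on TIE2 (Tek) beside its relative TIE1. Endoglin (Eng) is a co-receptor for BMP and TGF-beta ligands. GARP itself is found on endothelial cells and platelets as well as on regulatory T cells, which is background for asking how these genes stood in treated tumors. In whole tumors, fewer endothelial cells and less RNA per cell cannot be told apart.

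Promoter sequences from RefSeq (GRCm38.p6) matched 6 of the 10 genes: Eng, Emcn, Tek, Tie1, Kdr and Flt1. The stretches below are the 250 bases before the transcription start, 5′ to 3′ on the gene's strand, of Tek and Emcn, which stood low in the same tumor (PIIO-1 tumor 5), of the VEGF receptor gene Flt1, and of Eng, the gene with the smallest p. The Emcn stretch ends 11 bases earlier, where an annotated exon begins. Capitals mark AGGAAG or its reverse complement CTTCCT, a core bound by ETS factors such as ERG and FLI1 that direct endothelial transcription.
Tek (chr4:94739039-94739288, plus strand): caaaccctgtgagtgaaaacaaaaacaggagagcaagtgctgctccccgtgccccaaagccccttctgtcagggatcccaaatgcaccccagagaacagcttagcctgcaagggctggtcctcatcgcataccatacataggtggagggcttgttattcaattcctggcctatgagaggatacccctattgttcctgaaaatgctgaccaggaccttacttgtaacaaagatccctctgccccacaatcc
Emcn (chr3:137340828-137341066, plus strand): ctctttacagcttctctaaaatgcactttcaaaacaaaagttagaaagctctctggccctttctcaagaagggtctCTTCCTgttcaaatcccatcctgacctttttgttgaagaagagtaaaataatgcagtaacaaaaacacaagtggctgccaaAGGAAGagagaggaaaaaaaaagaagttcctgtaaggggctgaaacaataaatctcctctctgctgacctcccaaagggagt
Flt1 (chr5:147726012-147726261, minus strand): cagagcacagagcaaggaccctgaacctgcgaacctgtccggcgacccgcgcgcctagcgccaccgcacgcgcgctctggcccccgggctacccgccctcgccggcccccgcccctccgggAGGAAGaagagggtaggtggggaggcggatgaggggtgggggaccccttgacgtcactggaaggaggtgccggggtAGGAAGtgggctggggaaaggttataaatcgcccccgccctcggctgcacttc
Eng (chr2:32646345-32646594, plus strand): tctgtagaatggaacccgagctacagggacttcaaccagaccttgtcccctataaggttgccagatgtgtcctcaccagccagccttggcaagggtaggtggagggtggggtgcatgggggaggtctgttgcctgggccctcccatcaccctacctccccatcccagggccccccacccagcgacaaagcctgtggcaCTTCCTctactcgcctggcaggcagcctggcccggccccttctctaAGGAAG
These letters occurred 2 times in each of the Emcn, Flt1 and Eng stretches and 0 times in that of Tek. On either strand they were present in 4 of the 6 genes (Kdr was the other one without them) and in 29.5% of all 32851 promoters of 250 bases; exon bases were left out of 3 of the 6 windows (Emcn, Kdr and Tie1), which shortened them. The GATA letters AGATAA and the SOX letters CATTGT, also searched on both strands, were in 0 of the 6 and in 9.99% and 10.7% of all promoters. A match describes the letters only. Since the GATA and SOX letters were not in these windows, no match overlapped one of another motif.

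The 10 genes stood at very unequal levels. Per length (reads per kb of merged exon per 1000000 reads in genes, mean ± SD of all 10 tumors), Plvap was at 14.8 ± 2.64, Cdh5 at 12.5 ± 1.68 and Pecam1 at 10.9 ± 2.41. Eng was at 5.04 ± 0.566, Flt1 at 1.66 ± 0.435 and Kdr at 0.885 ± 0.213. The lowest were Tie1 at 0.389 ± 0.165, Emcn at 0.313 ± 0.134, Vwf at 0.299 ± 0.0727 and Tek at 0.0644 ± 0.0271. The mean of Plvap was thus 38.1 times, and that of Cdh5 32.2 times, that of Tie1, although all are textbook genes of the same cell type. Pecam1 exceeded Eng, Eng exceeded Flt1, Flt1 exceeded Kdr, and Vwf exceeded Tek in 10 of 10 tumors, while Plvap exceeded Cdh5 in 9 and Kdr exceeded Tie1 in 9. Neighbours that did not separate were Cdh5 and Pecam1 (Cdh5 higher in 7 of 10 tumors), Tie1 and Emcn (7 of 10), and Emcn and Vwf (5 of 10). Among all genes tested, Plvap lay at the 76.6th percentile of level per length and Tie1 at the 12.6th.

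Other endothelial markers were as unequal, in a list of 25 genes that included transcription factors, junction proteins and surface receptors. Their median was 0.340 reads per kb per 1000000 reads against 4.89 for all genes tested, and 14 of the 25 lay below Tie1. The tight junction gene Cldn5 (0.585 ± 0.287), the adhesion gene Esam (0.526 ± 0.174), the transcription factor gene Erg (0.365 ± 0.0934), the nitric oxide synthase gene Nos3 (0.309 ± 0.0712) and the guidance receptor gene Robo4 (0.181 ± 0.0870) lay between the levels of Kdr and Tek. Above Eng stood 4 of the 25: Ecscr (47.8 ± 5.66), Cd34 (26.9 ± 2.70), Cd93 (9.67 ± 2.42) and Fli1 (5.12 ± 0.964), of which Cd93 and Fli1 are also leukocyte genes and Cd34 is also made by other mesenchymal and progenitor cells. The labelled tumor line was checked too: Krt8, a keratin of simple epithelia, stood between 50275 and 65634 normalized counts, and the uroplakin gene Upk3a between 0 and 3.27. Which cells each gene's reads came from was not tested.

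**Figure D1:**
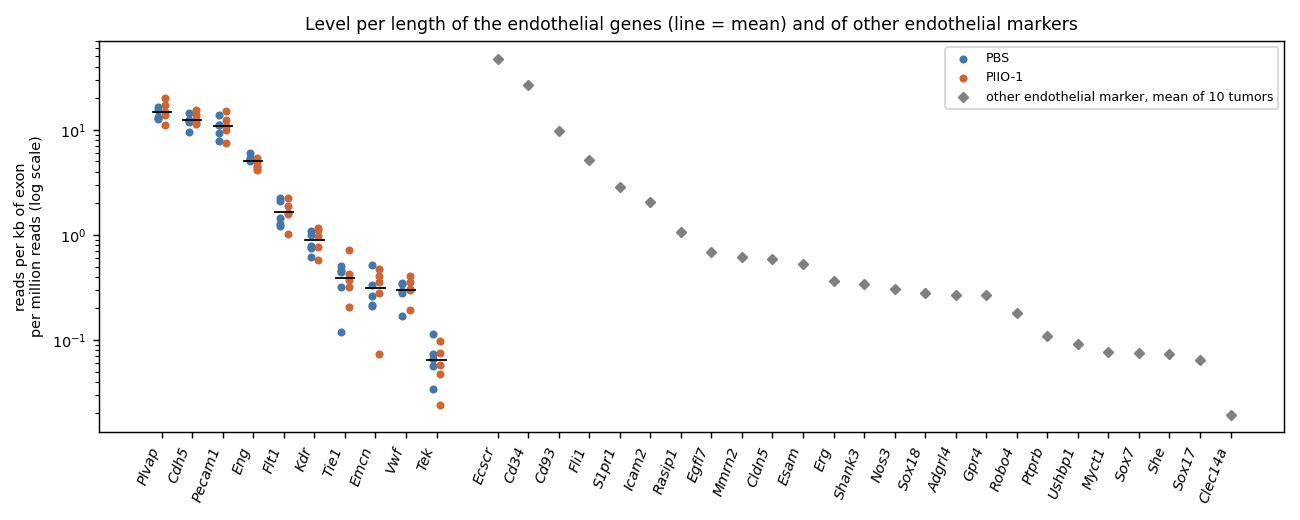
Reads per kb of merged exon per 1000000 reads in genes (log axis) of the 10 endothelial genes in each PBS and PIIO-1 tumor, with the mean of all 10 tumors as a line, and the mean of 25 other endothelial markers as grey diamonds. Plvap, Cdh5 and Pecam1 lie between 10.9 and 14.8, Tie1, Emcn and Vwf near 0.3 to 0.4, and Tek at 0.0644.

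None of the endothelial genes differed between PIIO-1 and PBS tumors past the threshold (limma, adjusted p under 0.05). Of the 10 genes, 9 passed the filter of a mean of at least 10 normalized counts, and Tek, at 9.28, did not. Of these 9, 0 were called, where 0% of all 16767 genes were called by limma, 0% by edgeR and 0.0179% (3 genes, 0 of them among the 10) by DESeq2. At an unadjusted p under 0.05 there was 1 of 9 by limma (5.63% of all genes, 2.77% lower in PIIO-1), 1 by edgeR (5.81%) and 0 by DESeq2 (6.04%). Groups overlapped for all 10 genes, and for all genes 0.853% did not overlap. Differences are PIIO-1 minus PBS on the log2(normalized count + 1) scale, with limma's standard error (SE); levels are normalized counts, mean ± SD of 5 tumors. Of the 9 genes 7 had a positive difference (51.1% of all genes), with a median of 0.12 beside 0.0027 for all genes tested. Omitting PBS tumor 2 turned that median to -0.017. Omitting PIIO-1 tumor 4, PBS tumor 1 or PIIO-1 tumor 1 gave 0.026, 0.039 and 0.059, and omitting PIIO-1 tumor 5 gave 0.21.

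**Figure D2:**
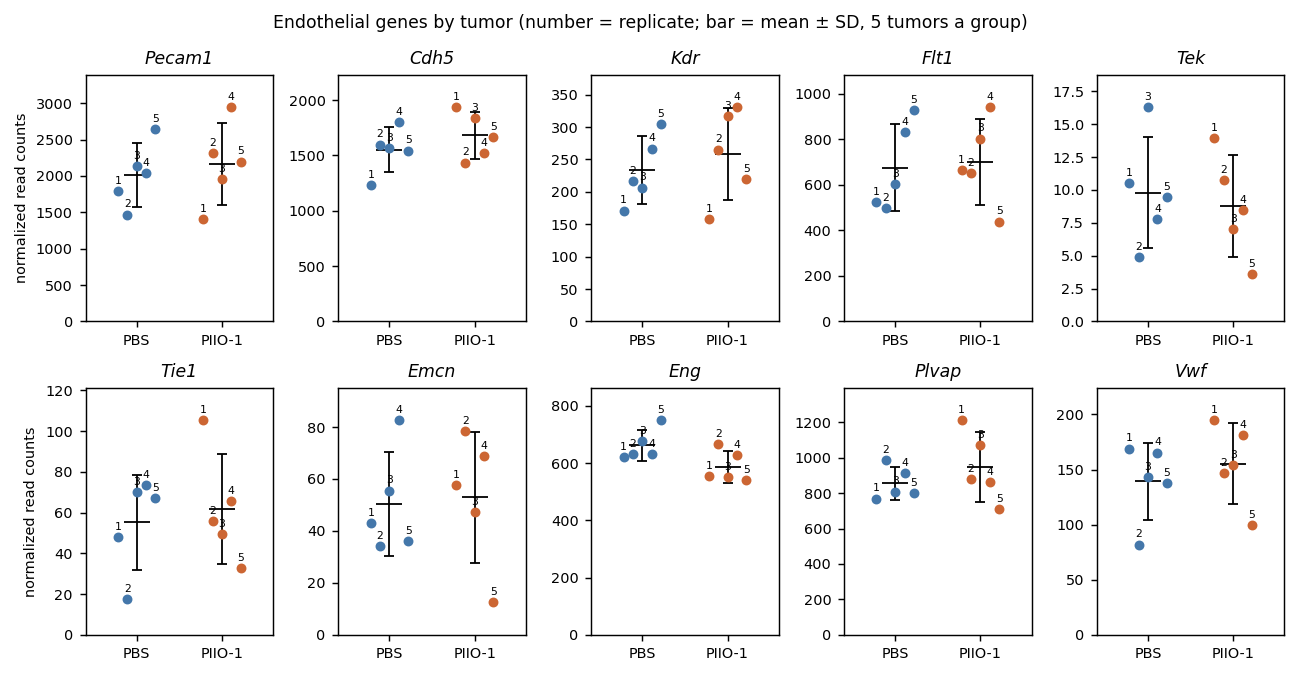
Normalized read counts of the 10 endothelial genes in every tumor, with replicate numbers beside the points and bars for the mean ± SD of 5 tumors a group; each axis starts at 0. The groups overlap for every gene, and PIIO-1 tumor 5 is the lowest of all 10 tumors for Flt1, Tek, Emcn, Eng and Plvap.

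Genes of junctions and of the cell surface are given first. Cdh5, at chromosome 8, 104101625 to 104144511 (plus strand, GRCm38, 13 merged exons), encodes the cadherin of endothelial junctions. It stood in PBS tumors 1 to 5 at 1235, 1599, 1567, 1802 and 1543 normalized counts, and in PIIO-1 tumors 1 to 5 at 1939.7, 1435, 1837, 1523 and 1666. PBS tumor 1 was the lowest and PIIO-1 tumor 1 the highest, with the others of both groups mixed between them. The means were 1549 ± 203 and 1680.0 ± 210.3, a difference of 0.12 (SE 0.11, 95% interval -0.11 to 0.35; limma, adjusted p = 0.879). It shrank to 0.039 when PBS tumor 1 was omitted and to 0.064 when PIIO-1 tumor 1 was.

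Pecam1, at chromosome 11, 106654217 to 106750628 (minus strand), encodes an adhesion molecule that endothelial cells share with platelets, macrophages and other leukocytes. Its values were 1790.1, 1469, 2129.6, 2036 and 2643 in PBS tumors 1 to 5, and 1406, 2315, 1957, 2951 and 2195 in PIIO-1 tumors 1 to 5. Both the lowest (tumor 1) and the highest (tumor 4) were PIIO-1 tumors, so the PBS values lay inside the PIIO-1 range. The difference was 0.091 (SE 0.19, interval -0.32 to 0.50; limma, adjusted p = 0.956), and it turned to -0.016 when PBS tumor 2 was omitted and to -0.031 when PIIO-1 tumor 4 was.

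Emcn, at chromosome 3, 137341067 to 137432185 (plus strand), encodes endomucin, a sialomucin of capillary and venous endothelium. PBS tumors 1 to 5 held 43.0, 34.1, 55.5, 82.7 and 36.2 normalized counts, and PIIO-1 tumors 1 to 5 held 57.7, 78.3, 47.2, 68.8 and 12.7. PIIO-1 tumor 5, with 14 reads, was the lowest by a wide margin, and PBS tumor 4 was the highest, 6.51 times as high. Emcn had the widest interval of the 9 genes: the difference was -0.068 (SE 0.44, interval -1.03 to 0.90; limma, adjusted p = 0.987). It became 0.37 when PIIO-1 tumor 5 was omitted and 0.13 when PBS tumor 4 was, and edgeR and DESeq2 on recovered reads gave 0.089 and 0.083, so its sign was not settled.

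The VEGF receptors lie on the same chromosome. Flt1 (chromosome 5, 147561604 to 147726011, minus strand) encodes VEGFR1, which binds VEGF tightly and signals weakly, and is also made by macrophages. It stood at 523, 496, 603, 830.1 and 927 in PBS tumors 1 to 5 and at 664, 653, 803, 943 and 438 in PIIO-1 tumors 1 to 5. PIIO-1 tumors held both ends of the range, tumor 5 the lowest and tumor 4 the highest. Its difference was 0.051 (SE 0.22, interval -0.43 to 0.53; limma, adjusted p = 0.978), and the sign turned negative when any of PBS tumors 1 and 2 and PIIO-1 tumors 3 and 4 was omitted (lowest -0.067).

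Kdr (chromosome 5, 75932827 to 75978458, minus strand) encodes VEGFR2, the main signalling receptor for VEGF-A. PBS tumors 1 to 5 were at 171, 217, 207, 267 and 304, and PIIO-1 tumors 1 to 5 at 158, 265, 317, 331 and 219.6. The lowest 3 were PIIO-1 tumor 1, PBS tumor 1 and PBS tumor 3, and the highest 2 were PIIO-1 tumors 4 and 3. The difference was 0.13 (SE 0.21, interval -0.34 to 0.59; limma, adjusted p = 0.940). Omitting PIIO-1 tumor 1 or PBS tumor 5 raised it to 0.29 and 0.23, and omitting PIIO-1 tumor 3, PIIO-1 tumor 4 or PBS tumor 1 lowered it to 0.042, 0.026 and 0.024.

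Of the genes for the TIE receptors, Tek was the least abundant member. Tek (chromosome 4, 94739289 to 94874976, plus strand), which encodes TIE2, had 96 reads over all 10 tumors. Its reads were 11, 5, 20, 5 and 11 in PBS tumors 1 to 5 and 14, 11, 7, 8 and 4 in PIIO-1 tumors 1 to 5, or 9.80 ± 4.23 and 8.77 ± 3.88 normalized counts. Counts this low leave most differences between tumors undetectable at this depth. In a fit with no filter on low values, its difference was -0.16 (SE 0.39, interval -1.01 to 0.68; limma, adjusted p = 0.973).

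Tie1 (chromosome 4, 118471191 to 118490061, minus strand) encodes the orphan receptor that pairs with TIE2. It was at 47.8, 17.6, 70.2, 73.3 and 67.2 in PBS tumors 1 to 5 and at 105, 55.8, 49.3, 65.6 and 32.7 in PIIO-1 tumors 1 to 5. PBS tumor 2 was the lowest and PIIO-1 tumor 1 the highest, a ratio of 6.01. The difference was 0.21 (SE 0.40, interval -0.67 to 1.09; limma, adjusted p = 0.952). Leaving out the lowest PBS tumor gave -0.15, leaving out the highest PIIO-1 tumor gave -0.0041, and leaving out PIIO-1 tumor 5 gave 0.41.

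Eng had the smallest p and the least spread of the members. It lies at chromosome 2, 32646595 to 32682669 (plus strand), and its exons share 61 bases with Fpgs, a gene on the opposite strand at a mean of 1194 normalized counts, so reads there cannot be assigned without strand. PBS tumors 1 to 5 were at 620.0, 631, 678, 632 and 750.2, and PIIO-1 tumors 1 to 5 at 554, 665, 551, 628 and 540.0. The lowest 3 of all 10 tumors were PIIO-1 tumors 5, 3 and 1, but PIIO-1 tumors 2 and 4 lay above the lowest PBS tumor. Means were 662 ± 54.0 and 588 ± 55.7, a difference of -0.17 (SE 0.079, interval -0.35 to -0.00044; limma, adjusted p = 0.837), so endoglin did not pass over all genes. The value stayed between -0.22 and -0.13 with each tumor left out in turn, and was -0.18 by edgeR and -0.17 by DESeq2.

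Plvap (chromosome 8, 71497765 to 71511752, minus strand) encodes the protein of the diaphragms that span fenestrae and caveolae. It stood at 769.9, 988, 809, 913 and 799 in PBS tumors 1 to 5 and at 1214, 882, 1073, 865 and 711 in PIIO-1 tumors 1 to 5. PIIO-1 tumors 1 and 3 were above all PBS tumors and PIIO-1 tumor 5 below all of them. The difference was 0.13 (SE 0.13, interval -0.16 to 0.42; limma, adjusted p = 0.891). Omitting PIIO-1 tumor 1 or 3 lowered it to 0.035 and 0.080, and omitting PIIO-1 tumor 5 raised it to 0.23.

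Vwf (chromosome 6, 125546774 to 125686679, plus strand) encodes von Willebrand factor, which tethers platelets and is stored in endothelial cells and in platelets. PBS tumors 1 to 5 held 169, 81.9, 143, 165 and 138, and PIIO-1 tumors 1 to 5 held 195, 147, 154, 181 and 99.8. PBS tumor 2 and PIIO-1 tumor 5 were the lowest, and the other 8 tumors lay between 138 and 195. Its difference was 0.16 (SE 0.22, interval -0.33 to 0.65; limma, adjusted p = 0.922), and it turned to -0.017 when PBS tumor 2 was omitted. Omitting PIIO-1 tumor 1 or 4 gave 0.072 and 0.098, and omitting PIIO-1 tumor 5 gave 0.31.

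**Figure D3:**
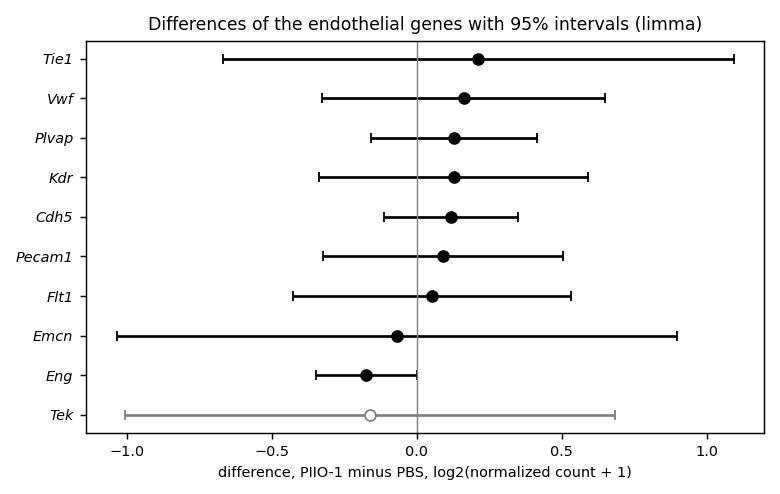
Difference of each endothelial gene, PIIO-1 minus PBS, on the log2(normalized count + 1) scale (horizontal axis), with 95% intervals from limma; the open grey point is Tek from the fit with no filter. All intervals but that of Eng (-0.35 to -0.00044) include 0, and those of Tie1, Emcn and Tek are the widest.

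The precision differed by gene. For 5 of the 9 genes (Pecam1, Cdh5, Flt1, Eng and Plvap) the 95% interval excluded a change of 1.5-fold in either direction. For Kdr and Vwf it excluded a decrease of that size but not an increase, and for Tie1 and Emcn neither.

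Pairs of members were compared across tumors. Of the 45 pairs, 36 had a positive Pearson's r over the 10 tumors, with a median of 0.24 and a range from -0.58 (Pecam1 and Plvap) to 0.89 (Tie1 and Vwf). None passed Benjamini-Hochberg adjustment over the 45 pairs (0 by r and 0 by rho, permutation test). Tie1, Vwf, Tek and Emcn, singled out after their values were seen, had r between 0.58 and 0.89 with each other. The closest pair was Tie1 and Vwf (r = 0.89, permutation p = 0.00177, adjusted p = 0.0796; Spearman's rho = 0.55, permutation p = 0.106, adjusted p = 0.531). It fell to r = 0.44 without the 2 tumors whose log2 Tie1 level lay farthest from the median of the 10, PBS tumor 2 and PIIO-1 tumor 5, so the high r leaned on those samples. Pecam1 and Kdr (r = 0.75, permutation p = 0.0131, adjusted p = 0.197; rho = 0.68, permutation p = 0.0345, adjusted p = 0.433) kept r = 0.65 without 2 such tumors. Cdh5 and Plvap had r = 0.65 (permutation p = 0.0406, adjusted p = 0.229; rho = 0.61, permutation p = 0.0668, adjusted p = 0.433), and r = 0.39 without 2 such tumors.

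**Figure D4:**
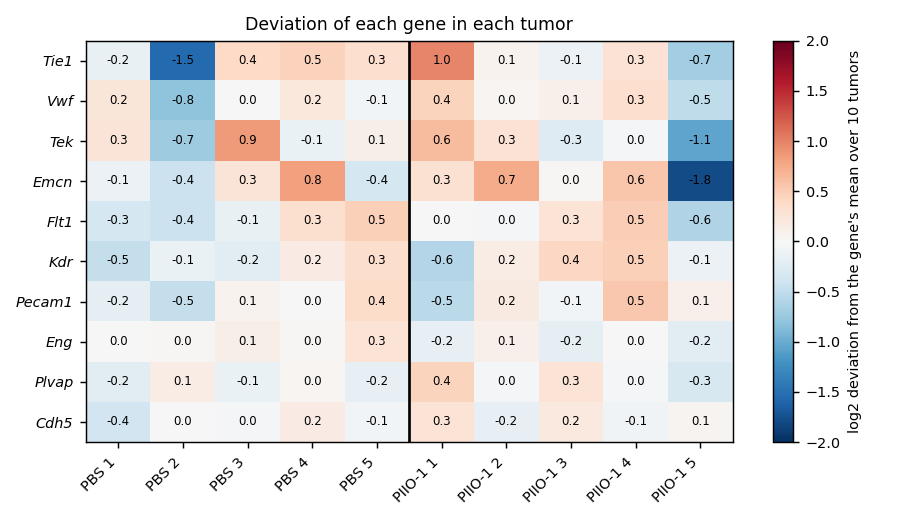
Deviation of each endothelial gene (rows) in each tumor (columns, PBS left of the line and PIIO-1 right) from the gene's mean over 10 tumors, on the log2(normalized count + 1) scale, red above and blue below the mean. PIIO-1 tumor 5 and PBS tumor 2 are blue for Tie1, Vwf, Tek, Emcn and Flt1, while Cdh5 and Eng deviate least.

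PBS tumor 2 and PIIO-1 tumor 5 had the lowest median deviations over the 10 genes. PIIO-1 tumor 5 was the lowest of the 10 for 5 members and below the gene's median for 8, and its median deviation was -0.42. PBS tumor 2 was the lowest for 2 members and below the median for 7, with a median deviation of -0.43. Of the 25 other endothelial markers, 23 were below their median in PBS tumor 2, 5 were the lowest of the 10 tumors and 0 the highest. The score of the 21 tested markers (mean of standardized log2 values) was -0.775 in PBS tumor 2 and -0.588 in PIIO-1 tumor 5. The 25 markers were mixed in PIIO-1 tumor 5: 17 were below their median and 11 were the lowest of the 10 tumors, but Fli1 (712 normalized counts against at most 664 elsewhere), S1pr1 (538 against at most 318) and Rasip1 (205 against at most 136) were the highest. Among those that were lowest, Cldn5 was at 6.35 normalized counts against 14.6 to 42.1 elsewhere, Esam at 19.97 against 28.3 to 65.7, and Robo4 at 9.08 against 15.6 to 56.7. Of the 13 pericyte and smooth muscle genes, 5 were lowest in PIIO-1 tumor 5 (Rgs5 at 20.9 against 38.0 to 120.2) and 1, Des, highest. In PBS tumor 2, 3 of the 13 were lowest and 2 highest. These genes were named after their values were seen. PIIO-1 tumor 5 had the highest beta-globin (Hbb-bs, 31170.4 against 3328 to 13993), and its depth of 35299028 reads in genes was not low. PIIO-1 tumor 1 was the highest for 4 members and the lowest for 2 (Pecam1 and Kdr). It had the highest fibroblast and pericyte scores (1.47 and 0.831, each the mean of standardized log2 values) and the lowest leukocyte score (-1.63). Their part in these levels was not tested.

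Markers of the other cells in the suspension were set beside the members. Scores of 7 marker lists and the 10 members gave 70 relations over the 10 tumors, of which 1 passed adjustment by r and 0 by rho. That one was Pecam1 with the 8 macrophage genes (r = 0.90, permutation p = 0.0003, adjusted p = 0.0210; rho = 0.89, permutation p = 0.00109, adjusted p = 0.0763), with r = 0.75 without the 2 tumors whose score lay farthest from the median (the extreme pair) and 0.91 after each group's mean was subtracted. The macrophage genes summed to between 44590 and 69038 normalized counts in PBS and between 39247 and 68359 in PIIO-1 tumors, with 8 of 8 detected and 0 at 0 in any tumor. Pecam1 also had r = 0.79 with the 6 leukocyte genes (permutation p = 0.00718, adjusted p = 0.101; rho = 0.75, permutation p = 0.0174, adjusted p = 0.194), which fell to 0.55 without the extreme pair. With the level of Ptprc, which encodes the leukocyte antigen CD45, as a covariate, the difference of Pecam1 was 0.021 in place of 0.091. That shift was smaller than the SE of Pecam1 (0.19). Other members moved in either direction, such as Plvap from 0.13 to 0.19 and Kdr from 0.13 to 0.094.

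Plvap ran the other way. Its r with the leukocyte genes was -0.84 (permutation p = 0.00249, adjusted p = 0.0562; rho = -0.81, permutation p = 0.00727, adjusted p = 0.170), and it was -0.86 without the extreme pair and -0.94 after each group's mean was subtracted. Cdh5 had r = -0.60 with the macrophage genes (permutation p = 0.0674, adjusted p = 0.346; rho = -0.71, permutation p = 0.0258, adjusted p = 0.226; -0.48 without the extreme pair). With the epithelial and MB-49 list it had r = 0.59 (permutation p = 0.0742, adjusted p = 0.346; rho = 0.61, permutation p = 0.0685, adjusted p = 0.400; 0.72 without the extreme pair).

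Relations with the other endothelial markers did not pass adjustment for any member. Vwf had r = 0.85 with the score of the 21 tested genes of that list (permutation p = 0.00300, adjusted p = 0.0562; rho = 0.77, permutation p = 0.0127, adjusted p = 0.194). Tie1 had r = 0.82 (permutation p = 0.00321, adjusted p = 0.0562; rho = 0.61, permutation p = 0.0665, adjusted p = 0.400). Emcn and Tek both had r = 0.74 (adjusted p = 0.123 and 0.145, permutation test; rho = 0.75 and 0.55, adjusted p = 0.194 and 0.463), whereas Pecam1 had 0.20, Plvap 0.016, Kdr -0.086 and Cdh5 -0.17. Without the extreme pair, the 4 values were 0.39 for Vwf, 0.35 for Tie1, 0.56 for Emcn and 0.28 for Tek. The high r of Vwf, Tie1 and Tek thus leaned on those samples, although the rank-based rho of Vwf over all 10 tumors was 0.77. Leaving out extreme scores also narrows the range, which can lower r by itself. Whether these r values differ from each other was not tested.

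**Figure D5:**
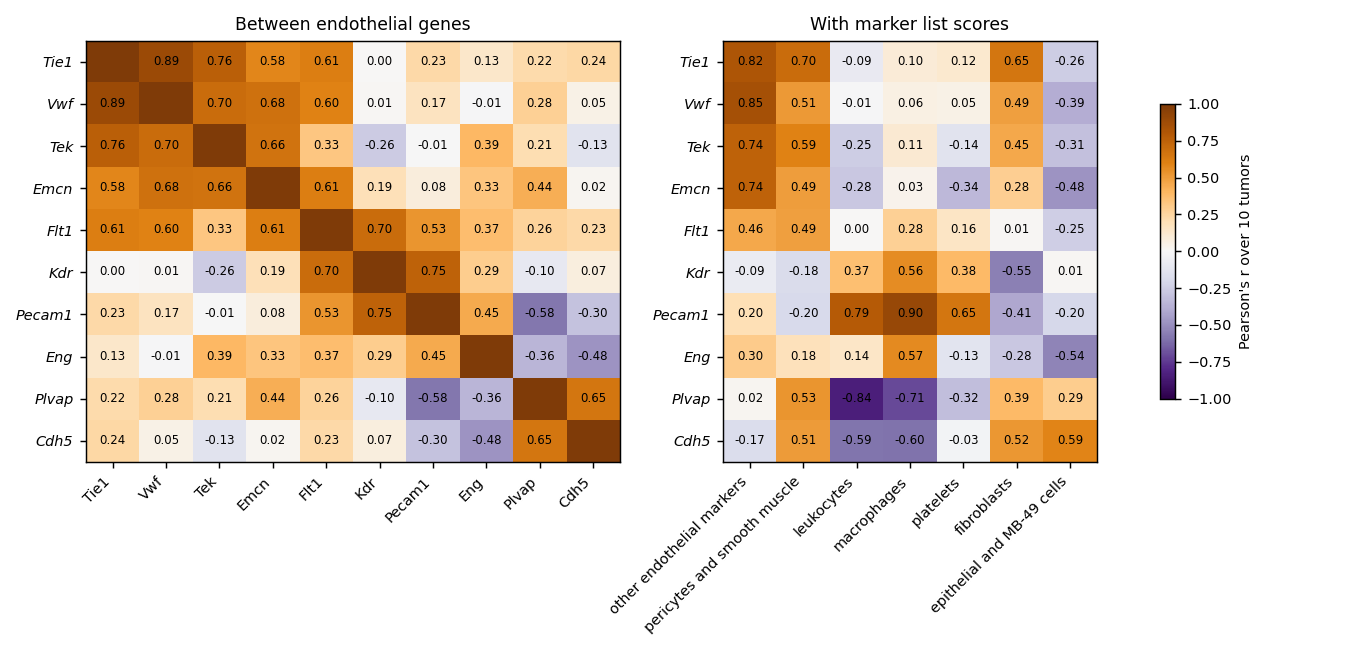
Pearson's r over 10 tumors between the endothelial genes (left) and between each of them and the mean standardized log2 level of 7 marker lists (right), orange for positive and purple for negative values. Pecam1 is highest with macrophages (0.90) and Plvap lowest with leukocytes (-0.84), while Tie1, Vwf, Tek and Emcn are between 0.74 and 0.85 with the other endothelial markers.

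Ligands and partners of these receptors gave 0 calls as well (limma, adjusted p under 0.05), so none rose or fell past the threshold. At an unadjusted p under 0.05 (5.63% of all genes) there were 5 of 7 red cell genes, 2 of 6 in each of the leukocyte adhesion, platelet and epithelial lists and 2 of 14 in the BMP and TGF-beta list. There was 1 of 21 other endothelial markers, 1 of 8 VEGF genes and 1 of 7 arterial and venous genes, and 0 in the other lists. Of 8 VEGF ligands and receptors outside the members, 4 were positive and 4 negative, with a median of -0.019. Vegfa, the ligand of both VEGF receptors, differed by 0.54 (SE 0.17; limma, adjusted p = 0.837) from 4837 ± 1009 to 7040 ± 1490.0, and the Flt1 ligand gene Pgf by 0.40 (SE 0.22). Their receptors differed by 0.051 and 0.13, as given above. Of the 5 angiopoietin and TIE ligand genes 2 passed the filter, Angpt2 (-0.071, SE 0.31) and Svep1 (0.14, SE 0.60), and Angpt2 was lowest in PIIO-1 tumor 5 (53.5 normalized counts against 123 to 203). Angpt1, which activates TIE2, was below the filter.

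Notch and tip cell genes had a median difference of 0.16 over 13 tested genes, 8 positive and 5 negative, with the apelin gene Apln at 0.26 (SE 0.14) and the Notch ligand gene Dll1 at 0.16 (SE 0.091). In the list of BMP and TGF-beta receptors with their targets, where Eng belongs by function, 10 of 14 were positive with a median of 0.025. The inhibitory Smad gene Smad7 was at 0.35 (SE 0.14) and Id1, a BMP target, at 0.23 (SE 0.095). Among 7 tested arterial and venous genes the median was 0.039, with the P-selectin gene Selp at 0.37 (SE 0.16) and the kinase gene Bmx at 0.75 (SE 0.42; 0.36 when PIIO-1 tumor 5 was omitted). Of the 6 tested genes for leukocyte adhesion, 3 were positive and 3 negative (median -0.024), with Vcam1 at -0.34 (SE 0.16).

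Capillary and lipid transport genes had a median of 0.053 over 11 genes, 9 positive and 2 negative. Rgcc was at 0.46 (SE 0.24) and the caveolar gene Cavin2 at 0.19 (SE 0.11). The lowest difference, -0.53, was that of Gpihbp1, at 26.9 to 42.9 normalized counts in PBS and 8.17 to 48.9 in PIIO-1 tumors. The 4 tested lymphatic genes were all positive (median 0.33, and 0.13 with PBS tumor 2 or 0.14 with PIIO-1 tumor 1 omitted), but Prox1, the factor that defines lymphatic endothelium, was below the filter, and the list's smallest p belonged to Pdpn (0.13, SE 0.081) and Reln (0.35, SE 0.21). Of 12 pericyte and smooth muscle genes 7 were negative (median -0.16), with Pdgfrb at -0.29 (SE 0.23) and Acta2 at -0.24 (SE 0.24). That median lay between -0.32 (PIIO-1 tumor 1 omitted) and -0.0021 (PIIO-1 tumor 5 omitted), Pdgfrb shrank to -0.13 when PIIO-1 tumor 5 was omitted, and Acta2 to -0.045 when PIIO-1 tumor 2 was. In the list of partners of von Willebrand factor, 2 of 4 tested genes were positive and 2 negative (median -0.072). F8 and Gp1ba were positive (highest 0.12). Adamts13, the protease that cleaves the factor, was at -0.18 (SE 0.32). Vwa1, which stands in this list but is not an established partner of the factor, was at -0.53 (SE 0.35). The 21 other endothelial markers had a median of -0.020, 10 positive and 11 negative, with Shank3 at -0.44 (SE 0.17) and Mmrn2 at -0.22 (SE 0.19). For all 16767 genes the median was 0.0027.

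Platelets also hold the products of Pecam1 and Vwf, and red cell genes were listed beside platelet genes. No relation of the members with red cell genes was computed. Differences were positive for 6 of 6 tested platelet genes (0.013 to 1.31, median 0.26). They were also positive for 7 of 7 red cell genes (0.025 to 1.57, median 1.39), with 0 calls in each list. Itga2b differed by 0.42 (SE 0.12) and Ppbp by 1.31 (SE 0.40), Hba-a2 by 1.56 (SE 0.39) and Hbb-bs by 1.42 (SE 0.42). Platelet genes summed to between 2578 and 4569.8 normalized counts in PBS and between 3443 and 6554 in PIIO-1 tumors, 0 of the 9 were at 0 in every tumor, and 3 (Gp5, Gp6 and Gp9) were below the filter. Those 3 were not tested, and their highest values were in PBS tumors. Gp6 spanned 1.63 to 18.1 in PBS and 0.995 to 6.35 in PIIO-1 tumors. Gp9 spanned 4.68 to 13.8 and 0.995 to 9.53, and Gp5 0 to 5.72 and 0 to 2.94. Pecam1 had r = 0.65 with the platelet score (permutation p = 0.0398, adjusted p = 0.278; rho = 0.73, permutation p = 0.0194, adjusted p = 0.194; 0.67 without the extreme pair), and Vwf r = 0.052 (permutation p = 0.890, adjusted p = 0.989; rho = -0.067, permutation p = 0.864, adjusted p = 0.960; -0.0028 without the extreme pair). The median difference of the 6 leukocyte genes was 0.090 (Cd53 0.21, SE 0.20; Coro1a 0.11, SE 0.20), of the 8 macrophage genes 0.072 (Lyz2 0.41, SE 0.21; C1qa -0.34, SE 0.21), of the 9 fibroblast genes -0.014 (Pi16 0.42, SE 0.23; Lum 0.38, SE 0.47) and of the 6 epithelial genes 0.086 (Krt14 0.41, SE 0.16; Cdh1 0.72, SE 0.31). Of the fibroblast genes 4 were positive and 5 negative (lowest -0.25), and of the epithelial genes 4 and 2 (lowest -0.45). Macrophage genes were 5 positive and 3 negative, and all 6 leukocyte genes were positive. Single tumors turned 3 of the medians of these lists. The leukocyte median became -0.014 with PIIO-1 tumor 5 omitted, and the macrophage median -0.028 with PBS tumor 2 omitted. The fibroblast median became -0.24 with PIIO-1 tumor 1 omitted and 0.12 with PBS tumor 4 omitted. Coro1a shrank to 0.0051 when PIIO-1 tumor 5 was omitted, and Lum to 0.0015 when PIIO-1 tumor 1 was. The 7 genes of the GARP list had a median of 0.054, with Tgfb1 at 0.15 (SE 0.11), Ltbp1 at -0.11 (SE 0.11) and Lrrc32 at 0.054 (SE 0.20; 94.0 ± 27.1 and 95.8 ± 17.8 normalized counts). Reads from the knocked-in human sequence count toward Lrrc32 only where they align to the mouse gene.

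Tested genes outside the set were ranked by likeness to the members' mean standardized profile over the 10 tumors. Unnamed gene models (Gm or Rik symbols) were left out, which gave 13711 genes. The most alike of these was Meox2 (r = 0.94, rho = 0.92, 17.0 normalized counts on average), a homeobox gene of mesenchyme and vessels. Next were Pcdhga11 (r = 0.91, rho = 0.79), Atmin (0.90, 0.83), Frmd4b (0.89, 0.84) and Wdr25 (0.88, 0.78), followed by the clone-named models AC162938.1 (0.88, 0.59) and CAAA01087686.1 (0.87, 0.81). They were ranked on r itself, so no p is given. Without the 2 tumors farthest from the profile's median, r was 0.94 for Meox2 and 0.56 for CAAA01087686.1. Lrrc32, the mouse symbol of the antibody's target, had r = 0.064 (rho = 0.25) and ranked 5866th, and Vegfa had r = -0.13 (rho = -0.042).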

How the data were processed

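Tumor RNA was sequenced in bulk; HISAT2, featureCounts and DESeq2 with build GRCm38 are named in the submitters' processing notes; versions, annotation and strandedness are not stated there. Per the labels and the file's name, the authors' values are DESeq2-normalized counts, a signal in which each library's gene counts were divided by 1 factor. Division of each column by its smallest step gave whole reads (within 0.001 read) for 100% of values; for PIIO-1 tumors 1 and 3 the step is close to 1. Every pair of libraries differed beyond sampling noise (lowest chi-square per gene 8.11). The depth allows 3 reads to stand for 2.45 to 4.68 normalized counts; this covers counting error only.

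The test was limma 3.58.1 (R 4.3.3, trend over mean level, two-sided) on log2(value + 1) of 16767 genes whose mean reached 10, with Benjamini-Hochberg adjustment over all genes and a threshold of 0.05; on this scale changes of low genes come out too small. Alternatives were other pseudocounts (0.5, 5), filters, TMM or upper-quartile scaling, no trend, array weights, a replicate block, edgeR 4.0.16 (0 genes called) and DESeq2 1.42.0 (3 called) on recovered reads, tumors left out, and, chosen after the data were seen, Ptprc as a covariate. Correlations used 100000 permutations. Exon lengths and coordinates are from GENCODE M21 (GRCm38), and promoters from RefSeq. Some marker genes stand in 2 lists (Selp, Icam2, Flt4, Mmrn1, Gp1ba, Gp9). In a test on simulated data modelled on this comparison (16767 genes), limma recovered 58.8% of genes changed 1.5-fold, 78.0% at 2-fold, 85.6% at 3-fold and 98.0% at 4-fold, and 5.60% of its calls were false. The 200 changed genes were drawn from all genes tested, and each gene was simulated independently. Of the 9 tested members, 8 had an SE above the median of all genes (0.104). With 200 changed genes the adjustment over all genes is also less strict than in the data, where limma called 0. These shares therefore do not give the recovery of the members, which would be lower.

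The members, the lists and the tests were chosen with earlier results of these data known. Named were all members, Vegfa, Lrrc32 and Tgfb1, the 2 genes of each list with the smallest p, and the 8 genes of most like pattern, of which 1 is not reported here; other genes were named after their values were seen.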

Additional observations from a re-analysis of the deposited data

Results flagged for a closer look

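In 4 of 106 groups of 5 tumors (members and named genes), 1 tumor stood far from the others: its gap to the nearest tumor exceeded 0.71 of the group's range. Chance flags about 1 group in 20, so this is no more than chance gives. No endothelial member was among them. In PIIO-1 tumors, tumor 5 was highest for Bmx (85.3 normalized counts, next 25.4) and Ppbp (1121, next 423) and lowest for Atmin (880.3, next 1034). In PBS tumors, tumor 5 was highest for Hbb-bs (7886, next 4087).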

How the results depend on the processing

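Of the 9 tested endothelial genes 0 were called under any alternative, with 1 tumor left out included. The number of genes called over all genes was 0 except with DESeq2 (3). The members' median difference was 0.12 and lay between -0.017 and 0.21 with 1 tumor left out, at 0.25 when PIIO-1 tumor 5 and PBS tumor 4 were both omitted, and at 0.072 as a mean; the causes of these shifts were not tested. Emcn turned positive with array weights (0.079), edgeR (0.089), DESeq2 (0.083) and with both of those tumors omitted (0.57).

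Signs that turned with 1 tumor left out had these ranges: Pecam1 -0.031 to 0.24, Flt1 -0.067 to 0.21, Tie1 -0.15 to 0.41, Emcn -0.26 to 0.37, Vwf -0.017 to 0.31, Lrrc32 -0.060 to 0.19, Svep1 -0.27 to 0.57, Angpt2 -0.20 to 0.27, Adamts13 -0.37 to 0.0074, Meox2 -0.032 to 0.56, Pcdhga11 -0.067 to 0.67, Atmin -0.040 to 0.044, Frmd4b -0.016 to 0.055 and AC162938.1 -0.13 to 0.26. Also reversed were Angpt2 (edgeR 0.049, DESeq2 0.054, Ptprc covariate 0.015, both tumors out 0.32), Lrrc32 (Ptprc covariate -0.014), Pdgfrb (both tumors out 0.018), Atmin (both tumors out 0.053, array weights 0.00060), Svep1 (array weights -0.17) and AC162938.1 (array weights -0.019). Medians of lists also turned with 1 tumor left out: other endothelial -0.10 to 0.045, VEGF -0.071 to 0.081, angiopoietin -0.24 to 0.23, arterial and venous -0.025 to 0.22, leukocyte adhesion -0.093 to 0.040, von Willebrand partners -0.20 to 0.028, leukocytes -0.014 to 0.25, macrophages -0.028 to 0.21, fibroblasts -0.24 to 0.12 and GARP -0.024 to 0.10. At least 1 other alternative turned the median of each of these lists except leukocyte adhesion, and that of the pericyte list (0.083 with both tumors omitted); with edgeR the other endothelial and fibroblast medians were 0.0011 and 0.11. Of 43 named genes that are no members, 33 kept their sign in every alternative. A change of filter, trend or block leaves a gene's difference as it is, so those alternatives could not turn the sign of a gene.

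The replicate number as a block called 0 genes. Every replicate number stands in both groups, so this block cannot change a difference, and the median of the members stayed at 0.12. Same-numbered tumors had correlations of -0.21 to 0.095, and none correlated best with its own number. Depth limits Tek, with 4 to 20 reads a tumor, most.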
